A study of Saccharomyces cerevisiae with 12 samples.

Results

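Wild-type (WT) yeast treated with rapamycin was compared with the same WT cultures treated with DMSO, the solvent of the drug. The comparison takes every array whose genotype label is wild type, which is 8 of the 12 arrays of the series: 4 of WT in 100 nM rapamycin and 4 of WT in 0.1% DMSO. The strain was BY4741, a haploid laboratory strain of *Saccharomyces cerevisiae* of mating type a that carries deletions in *HIS3*, *LEU2*, *MET17* and *URA3*, so these auxotrophies were shared by both groups. Cells were grown to mid-log phase in the rich medium YPD at 30°C, and drug or solvent was then present for 30 min at the same temperature before the cells were frozen. Each of 4 WT cultures was divided between the treatments, so arrays with the same replicate number came from the same culture and were compared as pairs. The other 4 arrays came from a deletion collection strain without *TUP1*, the gene of a general corepressor (*tup1Δ*, 2 arrays in rapamycin and 2 in DMSO), and were used only to set the WT response beside that of a second strain.

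Rapamycin binds the prolyl isomerase Fpr1, and the pair inhibits TORC1, the protein kinase complex that couples growth to the supply of nitrogen and amino acids. In cells with ample nitrogen, TORC1 activity keeps the GATA activators Gln3 and Gat1 from their targets, a control known as nitrogen catabolite repression (NCR), and promotes the synthesis of ribosomes. When TORC1 is inhibited, genes for the use of poor nitrogen sources, stress protection, autophagy and reserve carbohydrates are known to be induced, and genes for ribosomal RNA synthesis, ribosome assembly and ribosomal proteins are known to be repressed.

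Levels below are log2 array signals, for which 1 unit is a factor of 2, and values of the 4 arrays of a group are given in the order of replicates 1 to 4. A log2 fold change is the mean of the rapamycin minus DMSO differences within the 4 cultures. A gene was called when its adjusted p was under 0.05 over all 5769 genes with a value and its log2 fold change was at least 1 in either direction. The medians of the 8 arrays lay between 11.48 and 11.52, because the deposited values had been normalized to a common distribution, so a change shared by all RNAs cannot be seen. The median log2 fold change over all genes was 0.06. The 3 genes whose coding sequence is deleted throughout in BY4741 (*LEU2*, *MET17* and *URA3*) read 7.85 to 8.0 on the 8 arrays, which shows where a gene without RNA lies. *HIS3*, of which only an internal stretch is missing, read 13.17 to 13.66 in rapamycin and 12.88 to 12.98 in DMSO. The 5 a-specific genes *STE2*, *MFA1*, *MFA2*, *STE6* and *BAR1* read 11.09 to 14.27. Of 4 α-specific genes, *STE3*, *MFALPHA1* and *MFALPHA2* read 7.98 to 8.99, although *SAG1* read 12.04 to 12.66. *TUP1* read 13.66 to 13.93 in rapamycin and 13.85 to 14.04 in DMSO.

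Rapamycin changed 762 genes, with 312 called higher (5.41% of all genes tested) and 450 called lower (7.8%). The 4 rapamycin values of a gene lay outside the range of its 4 DMSO values for all 312 higher genes and for 446 of the 450 lower genes. All 762 differed in the same direction in each of the 4 cultures. With a median SE of 0.05 over all genes, both properties follow largely from the fold threshold and are no separate support. Genes that were not called can have them too, such as *UBA4* (log2 fold change 0.28), and the share over all genes is not given here. At this threshold the falls were more frequent and larger. The median log2 fold change was -1.62 among genes called lower and 1.33 among genes called higher, and 138 genes fell to -2 or below whereas 59 reached 2. At the extremes, 31 genes fell to -3 or below and 18 reached 3. The adjusted p alone was passed by 2379 genes that were higher (41.2%) and 1759 that were lower (30.5%), so that criterion separates gene groups poorly and counts below use both criteria unless stated. In bulk RNA, a change in the RNA per cell and a change in the share of cells that contain it cannot be told apart.

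**Figure D1:**
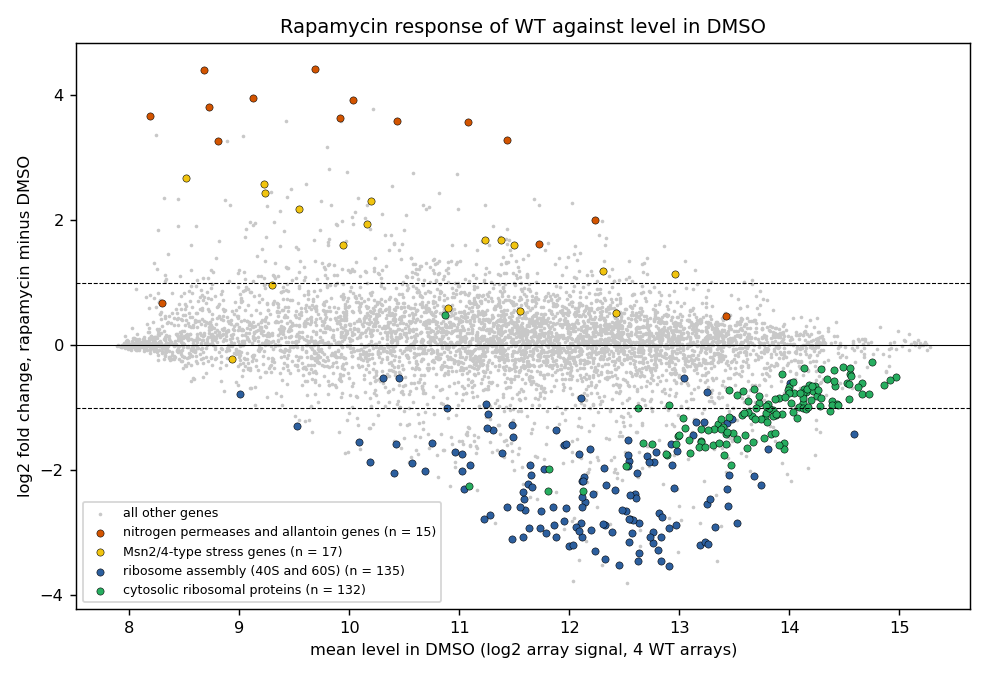
Each point is a gene, placed by its mean level in DMSO (log2 array signal, 4 arrays) and its log2 fold change, rapamycin minus DMSO, in WT. Dashed lines mark log2 fold changes of 1 and -1. Nitrogen permease and allantoin genes (n = 15) reach 4.42, Msn2/4-type stress genes (n = 17) reach 2.68, ribosome assembly genes (n = 135) fall as far as -3.53, and most ribosomal protein genes (n = 132) lie toward the right, among the brighter genes.

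The largest rises belonged to genes for the uptake of nitrogen compounds. Of 9 permeases under NCR, 8 were called higher and 0 lower, with a median log2 fold change of 3.58. *DAL5* (YJR152W), which encodes the allantoate permease, read 14.0, 13.85, 14.28 and 14.27 in rapamycin, against 9.66, 9.46, 9.93 and 9.68 in DMSO. The groups were more than 3 units apart, and the log2 fold change of 4.42 (SE 0.05, adjusted p = 7.64e-07), a factor of 21.4, was the largest rise of all genes. *PUT4* (YOR348C), the proline permease, was next at 13.12, 13.23, 13.03 and 12.95 in rapamycin and 8.65, 8.66, 8.74 and 8.68 in DMSO (log2 fold change 4.40, SE 0.06, adjusted p = 8.1e-07). *GAP1* (YKR039W), the general amino acid permease, read 14.56, 14.65, 14.76 and 14.89 in rapamycin, against 11.47, 11.52, 11.32 and 11.41 in DMSO, a factor of 9.75. The permeases for 4-aminobutyrate (*UGA4*, 3.95), urea (*DUR3*, 3.59) and allantoin (*DAL4*, 3.27) had similar log2 fold changes. The ammonium permeases did not move alike. *MEP2*, the high-affinity form that also acts as an ammonium sensor, rose by 3.58, *MEP1* by 1.62, and *MEP3*, the low-affinity form, had 0.46 and was not called. In DMSO, *MEP3* already read 13.36 to 13.50.

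The enzymes that degrade the same compounds followed. In allantoin and urea degradation, 5 of 6 genes were called higher with a median of 3.65, and 0 were lower. *DAL7* (YIR031C), a malate synthase of the allantoin route, read 13.84, 13.95, 14.04 and 14.03 in rapamycin, against 10.28, 10.14, 9.86 and 9.87 in DMSO (log2 fold change 3.93, SE 0.11, adjusted p = 3.02e-06). *DAL1* (YIR027C), the allantoinase, read 12.61, 12.55, 12.48 and 12.49 in rapamycin and 8.8, 8.72, 8.7 and 8.67 in DMSO, a factor of 14.0. Neither gene had overlapping groups. *DAL2* (allantoicase, 3.64), *DAL3* (ureidoglycolate lyase, 3.66) and *DUR1,2* (urea amidolyase, 2.00) were also called. *DAL1*, *DAL4*, *DAL2*, *DCG1*, *DAL7* and *DAL3* are neighbors on chromosome IX in the R64 annotation, and the run holds no other protein-coding gene. *DCG1*, whose function is not established, was the exception inside it, with 9.27, 9.01, 8.81 and 8.83 in rapamycin, 8.35, 8.35, 8.21 and 8.29 in DMSO, and a log2 fold change of 0.68. Genes outside the run changed in both directions. *YVH1*, a phosphatase gene with a part in 60S assembly that lies next to *DAL1*, fell by 2.22. The next genes on that side had 0.64 and 0.54, which passed the adjusted p but not the fold threshold. On the other side, *MGA2*, next to *DAL3*, had 0.25, and *LYS1*, for the last enzyme of lysine synthesis, rose by 1.41. The gene after *LYS1* had 0.02.

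Among 11 genes of amino acid degradation, 6 were called higher and 0 lower, with a median log2 fold change of 1.60. *PUT1* (YLR142W), the proline oxidase, read 12.88, 12.84, 13.15 and 13.15 in rapamycin, against 9.51, 9.46, 9.38 and 9.35 in DMSO (log2 fold change 3.58, SE 0.09, adjusted p = 2.09e-06). *PUT2*, which encodes the next enzyme of the same 2-step route, had only 0.81 and was not called. The 4-aminobutyrate genes were closer to each other, with *UGA1* (transaminase) at 2.75 and *UGA2* (succinate semialdehyde dehydrogenase) at 2.36. *ARO10* (2.74) and *ARO9* (1.60), of the route from aromatic amino acids to fusel alcohols, and *GDH2* (1.76), the glutamate dehydrogenase that releases ammonium, made up the rest of the called members. Arginase *CAR1* had 0.98, just inside the threshold, and *CAR2* had 0.49. In ammonia assimilation, *GDH3* rose by 2.10, whereas glutamine synthetase *GLN1* (0.45), *GDH1* (0.87) and *GLT1* (0.33) were not called.

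Of 9 regulators of nitrogen genes, 3 were called higher. *DAL80* (YKR034W), a GATA repressor that is itself an NCR target, read 11.69, 11.45, 11.58 and 11.66 in rapamycin, against 8.24, 8.21, 8.26 and 8.25 in DMSO (log2 fold change 3.36, SE 0.05, adjusted p = 8.1e-07). Its DMSO values were within 0.5 of the level of the deleted genes, so the fold change is limited by the low end of the array. This held for 13 of the 312 genes called higher, *DAL3* among them. *UGA3*, the activator of the 4-aminobutyrate genes, rose by 1.65 and the GATA activator *GAT1* by 1.18. The other GATA activator, *GLN3* (0.66), the repressor *GZF3* (0.74) and *URE2*, which holds Gln3 in the cytoplasm (0.09), were not called.

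Amino acid permeases that respond to extracellular amino acids or are made constitutively split in direction. Of 13 such genes, 4 were called higher and 2 lower, with a median of -0.16. *AGP1* (YCL025C), a broad-range permease, read 14.24, 14.22, 14.41 and 14.32 in rapamycin, against 11.86, 12.07, 12.04 and 12.15 in DMSO, and its log2 fold change was 2.27 (SE 0.06, adjusted p = 1.97e-06). The peptide transporter *PTR2* (1.34), the arginine permease *CAN1* (1.32) and the dicarboxylic amino acid permease *DIP5* (1.20) were also higher. *MUP1* (YGR055W), the high-affinity methionine permease, fell to 12.44, 12.57, 11.86 and 11.78 in rapamycin, against 13.74, 13.76, 13.66 and 13.61 in DMSO (log2 fold change -1.53), and *TAT1*, for branched-chain and aromatic amino acids, had -1.31. For both falling genes, replicates 3 and 4 were lower in rapamycin than replicates 1 and 2.

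Some other genes belonged to no list but stood among the 15 largest rises. *ASP3-1* (YLR155C), a secreted asparaginase, read 13.73, 13.7, 14.25 and 14.31 in rapamycin, against 10.24, 10.3, 10.17 and 10.15 in DMSO (log2 fold change 3.78, SE 0.15). It has 3 near-identical copies at the same locus that carried no value on these arrays, so the signal belongs to the group of copies. *OPT2*, an oligopeptide transporter, had 3.58, and *DPI8* had 3.35. Together, the 6 nitrogen lists held 52 genes, 27 called higher and 2 lower, and supplied 17 of the 50 largest rises.

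**Figure D2:**
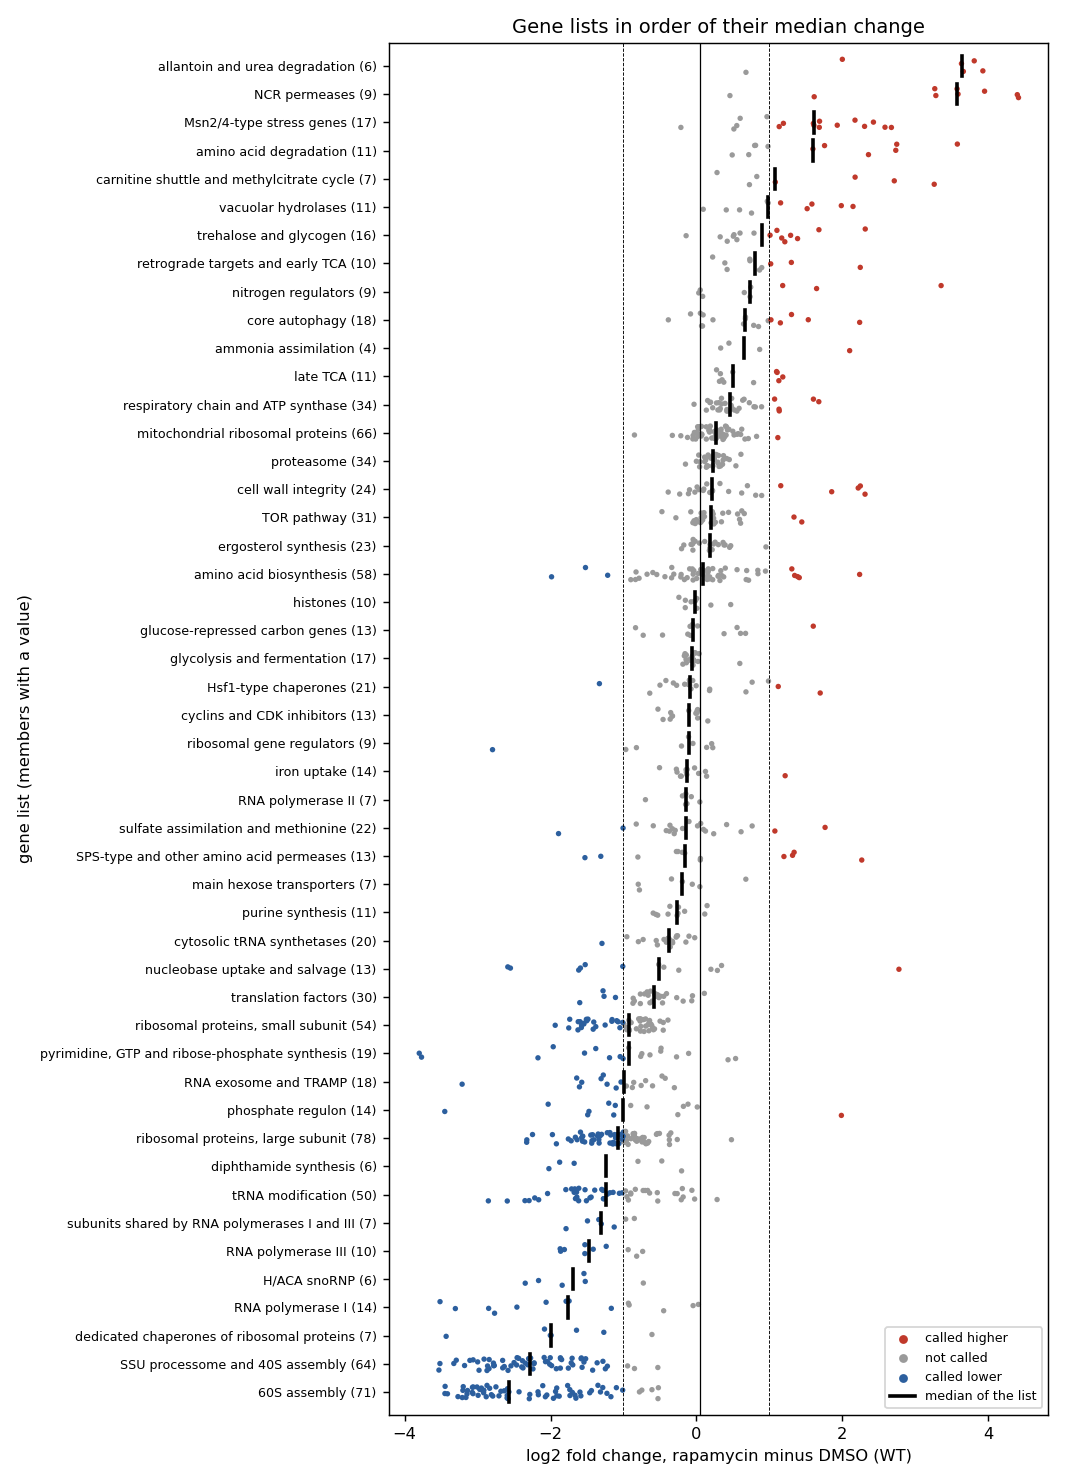
Each point is a gene of a list, placed by its log2 fold change, rapamycin minus DMSO, in WT, and each black bar is the median of the list. Lists run from the lowest median (60S assembly, -2.57) at the bottom to the highest (allantoin and urea degradation, 3.65) at the top, the solid line is the median of all genes (0.06), and dashed lines mark 1 and -1.

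Some retrograde targets and genes of the tricarboxylic acid (TCA) cycle rose in moderation. The retrograde list had 10 members, 7 of them enzymes that are targets of the pathway or supply the carbon skeleton of glutamate, and 3 of them its regulators *RTG1*, *RTG2* and *RTG3*. Of the enzymes, 3 were called higher and the median was 0.90. No regulator was called, and their median was 0.39. All 10 were higher by the adjusted p alone, a criterion that 41.2% of all genes passed in that direction. *CIT2* (YCR005C), the peroxisomal citrate synthase that is the classical retrograde marker, read 13.99, 14.09, 13.94 and 13.88 in rapamycin, against 12.16, 12.08, 11.33 and 11.33 in DMSO (log2 fold change 2.25, SE 0.14, adjusted p = 4.73e-05). The treated cultures were alike, and the spread lay in DMSO, where replicates 3 and 4 were lower. The mitochondrial citrate synthase *CIT1* rose by 1.30 and pyruvate carboxylase *PYC1* by 1.02. In the later part of the cycle, 4 of 11 genes were called higher, 3 of them for subunits of succinate dehydrogenase (*SDH1* 1.19, *SDH2* 1.13, *SDH4* 1.10).

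The respiratory chain and ATP synthase showed a small shift across most members. Of 34 genes, 32 were higher by the adjusted p alone (94.1%, against 41.2% of all genes). By both criteria 5 were called, and the median of the list was 0.46. The 2 largest were *COX5B* (YIL111W, 1.68), the hypoxic isoform of a cytochrome c oxidase subunit, and *COX9* (1.61), another subunit of that complex. *COX5B* read 11.26, 11.14, 11.56 and 11.48 in rapamycin, against 9.85, 9.72, 9.57 and 9.58 in DMSO. Mitochondrial ribosomal proteins had a median of 0.27, with 43 of 66 higher by the adjusted p alone and 1 called, *MRP8* (1.12). That share, 65.2%, is to be read against the 41.2% of all genes. The proteasome list showed a small and even shift. Its 34 genes had a median of 0.23, 29 were higher by the adjusted p alone, and 0 were called. The medians of the proteasome list in the 4 cultures had an SD of 0.01.

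General stress genes rose, whereas most chaperones did not. Among 17 genes of the type activated by Msn2 and Msn4, the zinc-finger activators that enter the nucleus when TORC1 or PKA activity drops, 12 were called higher and 0 lower, with a median of 1.61. *DDR2* (YOL052C-A), a multistress gene, read 11.25, 10.98, 11.26 and 11.26 in rapamycin, against 8.53, 8.55, 8.51 and 8.46 in DMSO (log2 fold change 2.68, SE 0.07, adjusted p = 2.21e-06). *HSP12* (YFL014W), a membrane-associated small heat shock protein, read 11.12, 11.87, 11.86 and 11.8 in rapamycin and 9.11, 9.11, 9.36 and 9.34 in DMSO (log2 fold change 2.43). Replicate 1 was the lowest of the treated arrays for *HSP12*, though still above every DMSO array. *SOL4* (2.59), *GAD1* (glutamate decarboxylase, 2.31), *CTT1* (cytosolic catalase, 1.93) and *MSN4* itself (1.61) were called as well. *SPI1*, a cell wall gene of the same list, had -0.21. Among 21 chaperone genes under Hsf1, 2 were higher and 1 lower, with a median of -0.09. Over all genes, 13.2% were called in either direction, so these counts do not set the list apart. The 2 that rose were *HSP26* (1.70) and *SSE2* (1.12), and *BTN2* fell by 1.33. *HSP82* (-0.27), *SSA1* (0.18) and *HSP104* (0.18) were within the fold threshold.

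Enzymes of both synthesis and breakdown of reserve carbohydrates rose together. Of 16 trehalose and glycogen genes, 8 were called higher and 0 lower, with a median of 0.90. *GPH1* (YPR160W), glycogen phosphorylase, read 10.96, 10.75, 11.56 and 11.47 in rapamycin, against 8.82, 8.8, 8.95 and 8.91 in DMSO (log2 fold change 2.32, SE 0.12, adjusted p = 2.34e-05). The branching enzyme *GLC3* (1.68), the debranching enzyme *GDB1* (1.29), the glycogen synthases *GSY2* (1.17) and *GSY1* (1.01), the trehalose synthase regulator *TSL1* (1.39) and the trehalase *NTH1* (1.21) were also called. The catalytic subunits of trehalose synthesis, *TPS1* (0.51) and *TPS2* (0.60), were not. The main glucose pathway stayed within the threshold. None of 17 glycolysis and fermentation genes (median -0.05) or 7 hexose transporters (median -0.19) was called. Of 13 glucose-repressed carbon genes, 1 was called (*MLS1*, 1.60). Over all genes, 13.2% were called in either direction.

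Autophagy and vacuolar genes rose in part. Of 18 core autophagy genes, 5 were called higher and 0 lower, with a median of 0.67. Of the 5, 4 were among the dimmest 25% of all genes, and 1 was called when these genes were left out. *ATG8* (YBL078C), the ubiquitin-like protein of the autophagosome membrane, read 10.55, 11.07, 11.53 and 11.48 in rapamycin, against 8.69, 8.6, 9.21 and 9.17 in DMSO (log2 fold change 2.24, SE 0.10, adjusted p = 1.45e-05). Replicates 3 and 4 were higher than replicates 1 and 2 under both treatments, so the cultures differed in level but not in direction. *ATG29* (1.54), *ATG7* (1.30), *ATG9* (1.15) and *ATG31* (1.02) were the other called members, and *ATG5* had -0.38. Among 11 vacuolar hydrolases, 5 were higher, led by the mannosidase *AMS1* (2.15) and carboxypeptidase S *CPS1* (1.99), whereas the proteinases *PEP4* (0.59) and *PRB1* (0.98) were not called.

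The falls were dominated by the making of ribosomes. Of 135 genes for assembly of the 40S and 60S subunits, 127 were called lower (94.1%) and 0 higher, and all 135 were lower by the adjusted p alone. They made up 28.2% of all genes called lower and 36 of the 50 largest falls. The 64 genes of the small-subunit processome and 40S assembly had a median log2 fold change of -2.29 with 61 called, and the 71 genes of 60S assembly had -2.57 with 66 called. *DRS1* (YLL008W), a DEAD-box helicase of 60S assembly, read 9.31, 9.6, 9.32 and 9.31 in rapamycin, against 12.75, 12.75, 12.86 and 12.97 in DMSO (log2 fold change -3.45, SE 0.09, adjusted p = 2.06e-06). The groups were more than 3 units apart, and treated replicate 2 stood above the other 3. *RRP5* (-3.53), needed for processing toward both subunits, *DHR2* (-3.52), *ENP2* (-3.33) and *ROK1* (-3.29) led the small-subunit list, and the export factor *ARX1* (-3.45), *BRX1* (-3.41) and *DBP2* (-3.27) stood beside *DRS1*. Of the methylation core of box C/D particles, *NOP56* (-2.24) and *NOP58* (-2.09) were near the median of the 40S list, and the methyltransferase *NOP1* (-1.42) fell less. The 8 members short of the fold threshold were *BUD21* (-0.94), *RRP7* (-0.85) and *ESF1* (-0.53) of the 40S list and *LOC1* (-0.78), *TIF6* (-0.75), *SQT1* (-0.61), *SSF2* (-0.53) and *JJJ1* (-0.52) of the 60S list.

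Genes for RNA polymerases I and III were lower. Of 14 genes for RNA polymerase I, which transcribes the large ribosomal RNAs, and its initiation factors, 9 were called lower with a median of -1.77. *RPA43* (YOR340C), the subunit that contacts the initiation factor Rrn3, read 8.86, 8.93, 8.63 and 8.68 in rapamycin, against 12.29, 12.19, 12.34 and 12.36 in DMSO (log2 fold change -3.52, SE 0.09, adjusted p = 1.93e-06). The fall put *RPA43* within 1 unit of the level of the deleted genes. *RPA49* (-3.31), the large subunit *RPA190* (-2.85) and *RRN3* (-1.79) were also called, whereas *RRN9* (0.03) and *RRN10* (-0.04), of the upstream activation factor, did not pass the test. Of 10 RNA polymerase III genes, 7 were lower with a median of -1.47 (*RPC34* -1.87, *RPC53* -1.86). Of 7 genes for subunits shared by polymerases I and III, 5 were lower with a median of -1.30. Both of those found in I and III but not in II were among them (*RPC40* -1.49, *RPC19* -1.13), as were 3 of the 5 that are also part of polymerase II (*RPB5* -1.79, *RPC10* -1.34, *RPO26* -1.30). By comparison, 0 of 7 genes for subunits found only in polymerase II were called, and their median was -0.14. *RPB9* had the lowest value of these, -0.70.

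**Figure D3:**
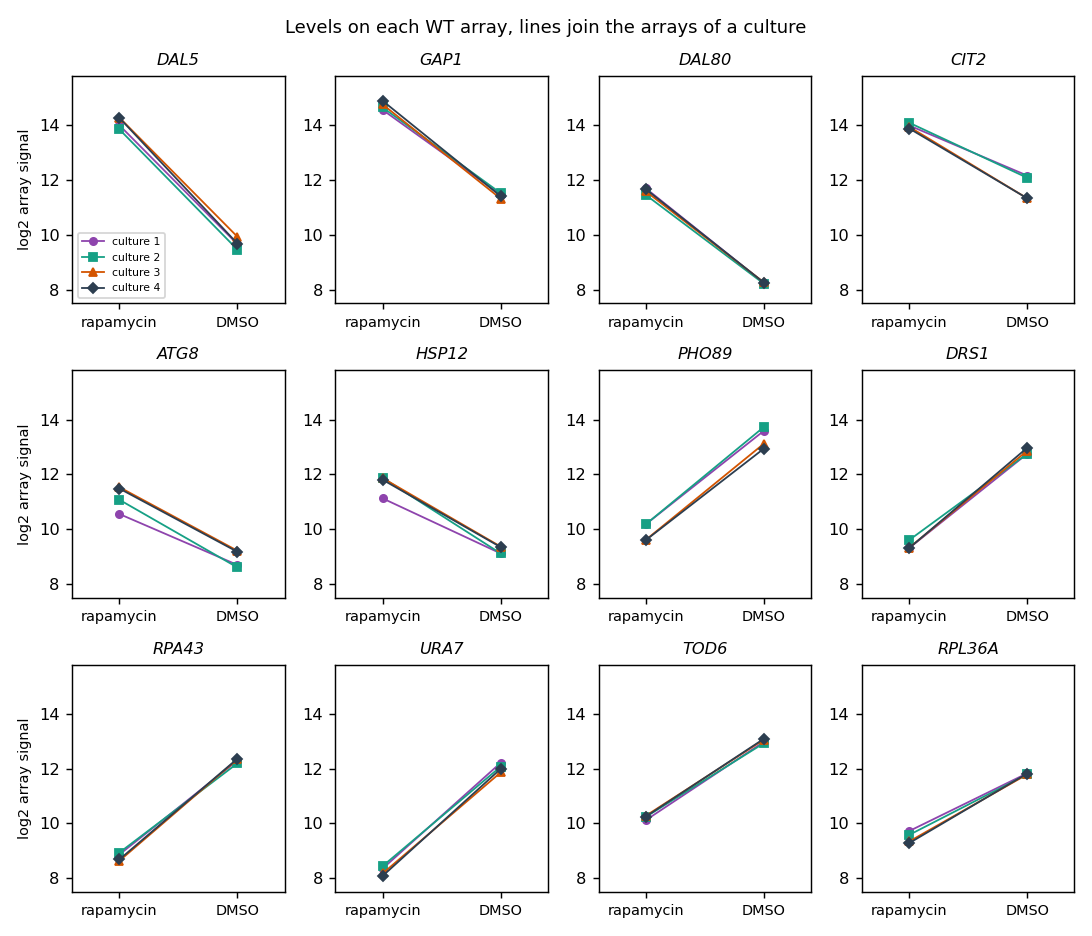
Log2 array signal of 12 genes on each WT array, rapamycin on the left and DMSO on the right of each panel, with a line joining the arrays of a culture. In none of the 12 panels do the 4 rapamycin values overlap the 4 DMSO values, and the lines of cultures 3 and 4 run close together.

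Genes for the supply of ribonucleotides fell by unequal amounts. Of 19 genes for pyrimidine, GTP and ribose-phosphate synthesis, 16 were lower (84.2%) and 2 higher by the adjusted p alone, with a median of -0.93. Over all genes, 30.5% were lower by that criterion. By both criteria, 9 of the 19 were called lower and 0 higher. They included the 2 largest falls of all genes. *RKI1* (YOR095C), ribose-5-phosphate isomerase, read 8.9, 8.72, 8.61 and 8.65 in rapamycin, against 12.43, 12.45, 12.6 and 12.6 in DMSO (log2 fold change -3.80, SE 0.09, adjusted p = 1.62e-06). *URA7* (YBL039C), the major CTP synthase, read 8.35, 8.44, 8.17 and 8.08 in rapamycin, against 12.21, 12.07, 11.86 and 11.99 in DMSO (log2 fold change -3.77, SE 0.06, adjusted p = 8.99e-07). In rapamycin, both read within 1 unit of the deleted genes. *URA8*, the minor CTP synthase, had 0.54. The IMP dehydrogenase *IMD4* fell by 2.17 and the dihydroorotate dehydrogenase *URA1* by 1.96. Purine synthesis fell less, with 0 of 11 genes called and a median of -0.26, though 8 were lower (72.7%) and 2 higher by the adjusted p alone.

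Ribosomal protein genes fell less than assembly genes. Of 132 with a value, 67 were called lower (50.8%) and 0 higher, and the median was -1.0. By subunit, 23 of 54 small-subunit genes were lower (median -0.92) and 44 of 78 large-subunit genes (median -1.07). The largest falls were those of *RPL36A* (YMR194W) and *RPL33B* (both -2.33) and, in the small subunit, *RPS17B* (-1.94) and *RPS24B* (-1.75). *RPL36A* read 9.72, 9.58, 9.34 and 9.28 in rapamycin, against 11.83, 11.79, 11.79 and 11.82 in DMSO (SE 0.08, adjusted p = 5.74e-06). These genes sit high in the range of the array, with a median signal of 13.31. The 57 among the brightest 5% of all genes in DMSO (mean of the 4 DMSO arrays above 13.94) had a median of -0.74 and 6 called, against -1.33 and 61 of 75 among the dimmer ones. Of all 289 genes in that bright part, 15 were called (5.19%), all of them lower, against 13.6% of the other genes. The DMSO level is part of the fold change, so this split favors falls among the bright genes. A split by the mean level over both treatments (brightest 5% above 13.87) gave other counts. Of the brightest 289 genes, 2 were called higher and 1 lower (1.04%), against 13.9% of the others. The 28 ribosomal protein genes among them had a median of -0.62 and 0 called, against -1.14 and 67 of 104 among the dimmer ones. Whether signal near the top of the array was compressed was not tested.

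Most yeast ribosomal proteins are encoded by duplicated genes, and the copies of some fell unequally. Of 55 pairs with values for both copies, 22 had both called lower, 16 had 1 and 17 had 0. A single call can rest on a small gap, as for *RPS19A* (-1.05) and *RPS19B* (-0.99). The median absolute difference within a pair was 0.15, and 14 pairs differed by at least 0.5. The widest gap was that of *RPL15*. *RPL15A* (YLR029C) read 12.74, 12.95, 12.22 and 12.19 in rapamycin, against 13.82, 13.65, 13.54 and 13.62 in DMSO (log2 fold change -1.13), whereas *RPL15B* read 11.17, 11.2, 11.53 and 11.48 in rapamycin, against 10.73, 10.68, 10.94 and 11.12 in DMSO (log2 fold change 0.48). *RPL15B* was the only ribosomal protein gene that was higher by the adjusted p, with no overlap of its groups. For *RPL36*, the A copy had -2.33 and the B copy -0.82, with *RPL36B* at 12.73 to 13.10 in rapamycin and 13.70 to 13.74 in DMSO. Copies that are nearly identical in sequence can share signal, so equal values within a pair may be equal for that reason.

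**Figure D4:**
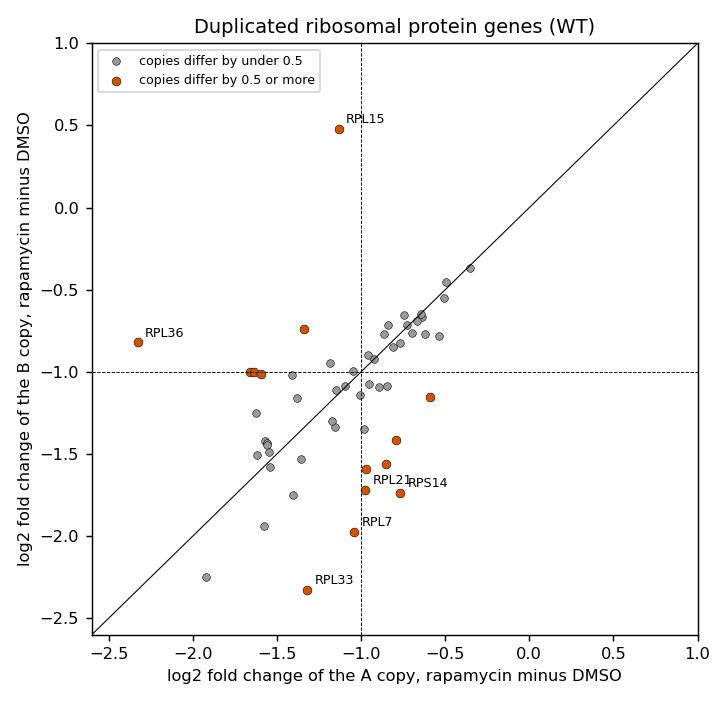
Log2 fold change, rapamycin minus DMSO, of the A copy against the B copy for 55 duplicated ribosomal protein genes in WT. The diagonal marks equal change, dashed lines mark -1, orange points are the 14 pairs that differ by at least 0.5, and *RPL15* is alone above 0 on the vertical axis.

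Of 9 genes for regulators of ribosomal genes, 1 was called, where 13.2% of all genes were called in either direction. *TOD6* (YBL054W), a repressor that binds the PAC element of assembly genes, fell to 10.12, 10.24, 10.28 and 10.25 in rapamycin, against 12.98, 12.93, 13.06 and 13.09 in DMSO (log2 fold change -2.80, SE 0.04, adjusted p = 8.99e-07). Its paralog *DOT6* had -0.05. The coactivator *IFH1* (-0.97) and *RAP1* (-0.82) passed the adjusted p but not the fold threshold, while *SFP1* had -0.20 and *FHL1* -0.11. In the TOR pathway itself, 2 of 31 genes were called higher, the kinase genes *YPK2* (1.45) and *NPR1* (1.34), and the median was 0.20. That count is near the 5.41% of all genes called higher. *FPR1* (YNL135C), the receptor of the drug, read 13.73, 13.54, 13.45 and 13.41 in rapamycin, against 13.72, 13.67, 13.37 and 13.31 in DMSO, and the log2 fold changes of *FPR1* (0.01), *TOR1* (0.11) and *TOR2* (-0.05) did not pass the test.

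Translation beyond the ribosome was lower by small amounts. Of 30 translation factor genes with a value, 4 were called lower with a median of -0.59, led by *SUI1* (YNL244C, -1.60), which encodes eIF1 and read 9.96, 9.79, 9.9 and 9.69 in rapamycin, against 11.49, 11.39, 11.44 and 11.42 in DMSO. *NIP1* (-1.28) and *PRT1* (-1.11) encode subunits of eIF3, and *TIF4631* (-1.27) encodes eIF4G. Among 20 cytosolic tRNA synthetase genes, 1 was called (*YHR020W*, prolyl-tRNA synthetase, -1.29) and the median was -0.37. Both counts are to be read against the 7.8% of all genes called lower.

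The 40 functional lists described here and below held 245 of the genes called lower and 84 of those called higher. After the other 205 and 228 were seen, 8 more families were written out in full, and their counts are descriptions of what was chosen. Of 50 tRNA modification genes, 30 were lower and 0 higher, with a median of -1.25. *TRM82* (YDR165W), the partner of the m7G methyltransferase *TRM8*, read 9.66, 9.66, 9.36 and 9.37 in rapamycin, against 12.38, 12.42, 12.34 and 12.33 in DMSO (log2 fold change -2.85), and *TRM8* had -2.35. *GCD10* (-2.59) and *GCD14* (-1.44), the subunits of the m1A methyltransferase, were both lower. The wobble deaminase subunit *TAD3* had -0.06, and the thiolation gene *UBA4* had 0.28. Of 6 genes of H/ACA particles, which guide pseudouridylation, 5 were lower (*NHP2* -2.35, *GAR1* -2.16). Of 7 dedicated chaperones of ribosomal proteins, 6 were lower, led by *SYO1* (YDL063C), the chaperone of Rpl5 and Rpl11, which read 8.8, 8.82, 8.54 and 8.48 in rapamycin, against 12.1, 12.17, 12.0 and 12.09 in DMSO (log2 fold change -3.43). Of 18 genes of the RNA exosome and the TRAMP complex, 9 were lower with a median of -1.0, and the helicase *MTR4* (-3.21) stood far from the next member, *MTR3* (-1.64). Of 6 diphthamide synthesis genes, which modify elongation factor 2, 3 were lower (*DPH2* -2.02, *DPH1* -1.88).

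Nucleobase uptake and salvage had members in both directions. The adenine deaminase *AAH1* (YNL141W) fell to 10.68, 10.71, 10.4 and 10.34 in rapamycin, against 12.97, 13.03, 13.27 and 13.21 in DMSO (log2 fold change -2.59), and the uracil permease *FUR4* had -2.55. The guanine deaminase *GUD1* (YDL238C), which releases ammonia from guanine, rose to 12.61, 12.78, 12.84 and 12.79 in rapamycin, against 9.88, 10.19, 9.97 and 9.87 in DMSO (log2 fold change 2.78). In all, 6 of 13 genes of this family were lower and 1 higher. Of 7 genes of the carnitine shuttle and methylcitrate cycle, 4 were higher, with *PDH1*, of propionate degradation, at 3.26 and the mitochondrial carnitine carrier *CRC1* at 2.71. Of 24 cell wall integrity genes, 5 were higher with a median of 0.22. *KDX1* (2.31), a pseudokinase of this pathway, *YPS6* (2.25) and *PIR3* (2.22) were among them, whereas the upstream kinases *PKC1* (0.10) and *BCK1* (-0.11) were not called.

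Biosynthetic and nutrient lists had members in both directions. Of 58 amino acid biosynthesis genes, 5 were higher and 3 lower, with a median of 0.09. Over all genes, 5.41% were called higher and 7.8% lower, so these counts do not set the list apart. Arginine genes made up most of the rises: *ARG1* (YOL058W), argininosuccinate synthetase, read 13.45, 13.37, 13.58 and 13.5 in rapamycin, against 11.04, 10.95, 11.5 and 11.45 in DMSO (log2 fold change 2.24), with *ARG4* at 1.39 and *ARG3* at 1.31. *LEU9*, the minor isopropylmalate synthase, fell by 1.99, *HIS6* by 1.52 and *PRO1* by 1.22. In the sulfur list of 22 genes, *MET16* (1.77) and *MET13* (1.08) were higher and *SAM1* (-1.89) and *MET14* (-1.01) lower. These counts too are to be read against the 5.41% and 7.8% of all genes. In the phosphate list, 7 of 14 genes were lower and 1 higher. *PHO89* (YBR296C), a sodium-phosphate cotransporter, fell to 10.18, 10.18, 9.61 and 9.6 in rapamycin, against 13.59, 13.73, 13.12 and 12.94 in DMSO (log2 fold change -3.45, SE 0.05, adjusted p = 8.1e-07). The acid phosphatases *PHO3* (-2.03) and *PHO5* (-1.11) were lower too, while *PHO84*, the main phosphate transporter, had -0.68 and *PHM8* rose by 1.99. Among iron uptake genes, 1 of 14 was called (*HMX1*, 1.22), where 5.41% of all genes were called higher. None of 23 ergosterol genes (median 0.19) or 13 cyclin and CDK inhibitor genes (median -0.10) passed the fold threshold. Nor did any of 10 histone genes (median -0.02). By the adjusted p alone, 14, 0 and 2 genes of these lists were higher (60.9%, 0% and 20%). By the same criterion, 1, 6 and 3 were lower (4.35%, 46.2% and 30%). The shares over all genes were 41.2% higher and 30.5% lower.

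The 4 cultures fell into pairs of unequal response size. Across genes, the SD of the difference between replicates 3 and 4 was 0.06 in rapamycin and in DMSO, and between replicates 1 and 2 it was 0.21 in rapamycin and 0.11 in DMSO, against 0.24 to 0.29 across the pairs. No label says why, and technical repeats cannot be told apart from separate cultures for replicates 3 and 4. The median difference of the genes called lower was -1.51, -1.48, -1.79 and -1.80 in cultures 1 to 4, and that of the genes called higher 1.27, 1.25, 1.48 and 1.48. The counts of ribosomal protein genes called moved with this split. With cultures 1 and 2 only, 18 small-subunit and 27 large-subunit genes were called, with medians of -0.75 and -0.88. With cultures 3 and 4 only, 30 and 55 were called, with medians of -1.12 and -1.26. For 60S assembly, the medians were -2.22 and -2.72. The nitrogen permeases differed less, at 3.48 and 3.68, and the Msn2/4-type genes had 1.59 and 1.70. Of the genes called over all 4 cultures, 256 higher and 385 lower genes were also called in each pair taken alone.

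**Figure D5:**
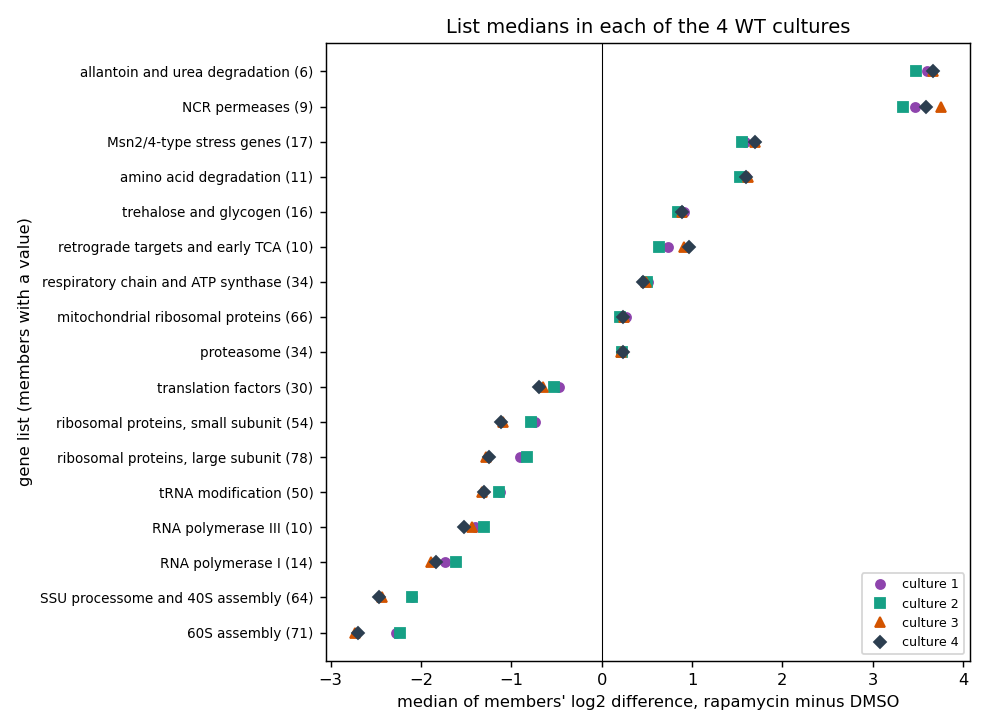
Median log2 difference, rapamycin minus DMSO, of the members of 17 lists in each of the 4 WT cultures. Cultures 3 and 4 lie further from 0 than cultures 1 and 2 for both ribosomal protein lists and both assembly lists, and the proteasome values coincide at about 0.23.

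The difference between the strains in the response to rapamycin was tested as an interaction, with 67 of 5769 genes called (1.16%), 31 of which were also called in WT. Among ribosome-related lists, the median was -2.20 in *tup1Δ* and -2.29 in WT for 40S assembly, with 1 of 64 genes called for the difference. It was -2.35 and -2.57 for 60S assembly, with 0 of 71, and -1.35 and -1.77 for RNA polymerase I, with 0 of 14. Ribosomal proteins had -0.58 in *tup1Δ* and -0.92 in WT for the small subunit and -0.63 and -1.07 for the large subunit, with 0 genes called in either. A call for the difference required a log2 difference of at least 1, which is about as large as the whole WT response of the ribosomal protein genes, so these counts could not show differences of the size of those between the medians. By the adjusted p alone, the difference was passed by 333 of all genes (5.77%), among them 3 genes of 40S assembly, 2 of 60S assembly, 1 of RNA polymerase I, and 1 small-subunit and 4 large-subunit ribosomal protein genes. Several of the strongest WT rises were smaller without *TUP1*. *PUT4* had a log2 fold change of 1.21 in *tup1Δ* and 4.40 in WT (adjusted p of the difference 3.36e-08), *OPT2* 1.25 and 3.58 (1.09e-06), *GAP1* 1.41 and 3.29 (6.58e-06), *PUT1* 2.00 and 3.58 (3.16e-05) and *DAL1* 2.57 and 3.81 (2.93e-05). *DAL5*, the largest rise in WT, had 3.98 in *tup1Δ*, and the difference did not pass the test (adjusted p = 0.27). The NCR permeases had a median of 2.36 in *tup1Δ* and 3.58 in WT. By the adjusted p alone, 7 of these 9 genes differed (77.8%), 6 with a lower response in *tup1Δ* and 1 with a higher one. So did 5 of 11 amino acid degradation genes (4 lower, 1 higher) and 8 of 17 Msn2/4-type genes (5 lower, 3 higher). In the stress list, *HSP12* had 0.64 in *tup1Δ* and 2.43 in WT (adjusted p of the difference 0.00199), whereas *DDR2* had 2.69 and 2.68. The assembly gene called for the difference was *ESF1*, with -2.52 in *tup1Δ* and -0.53 in WT. *PHO89* had -0.74 in *tup1Δ* and -3.45 in WT, a difference of 2.71 (adjusted p = 0.000616). In DMSO, *PUT4* averaged 13.03 in *tup1Δ* and 8.68 in WT, *HSP12* 13.72 and 9.23, and *PHO89* 13.76 and 13.34. The part of the starting level in the response was not tested.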

How the data were processed

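Total RNA was extracted with hot phenol, labeled with Cy3 and hybridized to 1-color NimbleGen expression arrays, and the authors quantified the signals with NimbleScan and then ran RMA on these and further arrays of their laboratory at once. RMA subtracts background, forces all arrays to the same distribution and combines the probes of a gene, which can compress large changes. The version of NimbleScan is not given in the sources used here. The deposited values are log2 signals, 1 per gene and array, with no depth and no detection flag, so precision could be judged only from the spread between arrays. Of 5872 deposited entries, 103 were empty on every array and 5769 were used, 5763 of them with a symbol from the R64 annotation. Empty entries included 9 members of the gene lists (*TIF1*, *EFT1*, *RPS28A*, *RPS30A*, *RPS30B*, *RPL35A*, *RPL41A*, *RPL41B* and *MRPL27*).

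The deposited log2 values were fitted in R 4.3.3 with limma 3.58.1 (lmFit, eBayes), with treatment and culture as terms over the 8 WT arrays (3 residual and 2.8 prior degrees of freedom). Adjusted p-values follow Benjamini and Hochberg and cover every gene fitted. Pairing rests on the design text, and deviations of same-culture arrays from their group means correlated at 0.745, 0.119, 0.531 and 0.535 for replicates 1 to 4. Arrays of different cultures within replicates 1 and 2 or within 3 and 4 reached 0.638, so these values reflect that grouping as much as the culture numbers. The exact paired permutation test over 4 cultures cannot go below a two-sided p of 0.125, so it was not used. The strain difference was an interaction over 12 arrays with 4 group means. The script was tested on simulated data before use.

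The comparison, the 40 gene lists and the naming rule were chosen with earlier results of these data known, and 8 further lists after the called genes had been seen. No list was tested as a set. Named by rule were, from each list, the 2 called members with the largest change in the majority direction and the largest in the other direction, the 15 largest rises and falls, *TUP1*, *FPR1*, *TOR1*, *TOR2* and the strain check genes, 110 genes in all. The other genes named were chosen after their values were seen. Alternatives were another normalization or centring, no filter against leaving out the dimmest 25% of genes, another prior, other fold thresholds, no culture term, and subsets of the cultures. The ChIP-seq data of the study were not analysed here.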

Additional observations from a re-analysis of the deposited data

Results flagged for a closer look

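Among 416 sets of 4 arrays (208 named genes, 2 treatments), 11 had 1 array far from the other 3, where chance flags about 5 in 100, or 20.8 sets. The measure is the gap to the nearest array divided by the range of the group, against the 95% limit of Dixon's test. In rapamycin, replicate 2 was high for *DRS1* (0.979) and low for *DDR2* (0.986) and *SDH4* (0.868), and replicate 1 was low for *GZF3* (0.835), *HSP12* (0.908) and *ESF1* (0.848) and high for *ATG5* (0.857). In DMSO, replicate 1 was low for *DPH1* (0.904) and high for *SPI1* (0.868), replicate 2 was low for *DPI8* (0.929) and replicate 4 for *MFALPHA1* (0.835). For *DPI8* and *MFALPHA1*, the 4 values span 9.01 to 9.04 and 7.98 to 8.0, so the flag concerns a very narrow range.

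For 14 named genes, the response to rapamycin differed between *tup1Δ* and WT by the interaction test. The response in *tup1Δ* was lower than that in WT by the following log2 amounts, *tup1Δ* minus WT: *PUT4* -3.2, *OPT2* -2.33, *ESF1* -1.99, *GAP1* -1.88, *HSP12* -1.79, *PUT1* -1.58, *MSN4* -1.37, *MET13* -1.27, *DAL1* -1.24, *ASP3-1* -1.1, *CPS1* -1.08 and *HMX1* -1.02. For *MET13*, the log2 fold change was -0.19 in *tup1Δ* and 1.08 in WT (adjusted p of the difference 0.00576 from limma). The difference was positive for *PHO89* (2.71) and *SAM1* (1.02), whose falls were smaller in *tup1Δ*.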

How the results depend on the processing

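With no fold threshold, 2379 genes were called higher and 1759 lower, so that higher genes made up 57.5% of the calls instead of 40.9%, and with a threshold of 1.5 the counts were 123 and 272 (31.1%). Fitted with no replicate block, 312 genes were higher and 450 lower, and all 762 genes were the same. The log2 fold change of a gene is identical with and without this block, so the agreement does not bear on the pairing. With replicates 3 and 4 averaged into 1 culture, 301 genes were higher and 434 lower. Leaving out 1 culture gave 295 to 336 higher and 431 to 474 lower genes, replicates 1 and 2 alone gave 276 and 401, and replicates 3 and 4 alone gave 376 and 501. Shifted to the median gene, there were 285 and 487 (36.9%). The count for the difference between strains was 67, and became 32 without the dimmest 25% of genes, 333 with no fold threshold and 71 with a replicate block. No named gene that was called changed direction, while 13 named genes that were not called and 5 list medians, whose reported values all lie within 0.11 of 0, changed sign under some setting, among them the medians of the ribosomal gene regulators (0.03 with replicates 1 and 2 only) and of the glucose-repressed carbon genes (0.02 and 0.01 with either pair alone). Several genes close to the threshold moved across it when 1 culture was left out: *GSY1* (0.98 without replicate 1 and 0.97 without replicate 2), *ATG31* (0.94 without replicate 3 and 0.95 without replicate 4), *PYC1* (0.98 without replicate 3) and *MET14* (-0.98 without replicate 2 and -0.99 without replicate 4) were lost, and *PRB1* (1.05 without replicate 1), *CAR1* (1.01), *BUD21* (-1.07), *RPS19B* (-1.03) and *IFH1* (-1.02, all without replicate 2) were gained. With replicates 1 and 2 only, *MET13* (0.92), *TAT1* (-0.97), *RPL15A* (-0.89), *PRT1* (-0.95), *RPS19A* (-0.94) and *PRO1* (-0.97) were below the threshold. Over all settings, 739 of the list counts stayed within 1.5 times and 77 did not. Leaving out the dimmest 25% of genes took members out of the lists, so fewer could be called. Of 6 core autophagy genes kept, 1 was called, instead of 5 of 18. For RNA polymerase III, 4 of 6 kept genes were called instead of 7 of 10. For the carnitine shuttle and methylcitrate list, it was 2 of 2 instead of 4 of 7. In the glucose-repressed (5 kept of 13) and iron uptake (10 kept of 14) lists, 0 were called instead of 1 each. A planned description of promoter motifs was not run because no promoter sequence was used here. With 4 arrays per group, RMA values and no detection flags, small changes of genes at either end of the signal range cannot be resolved.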
